A study of Mus musculus with 12 samples.

Results

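The genes of the major histocompatibility complex (MHC, called H2 in the mouse) and of antigen presentation were followed in whole liver of Lcn2 null and wild type mice that received CCl4 or mineral oil. The set was chosen by name: every gene whose symbol begins with H2-, with 1 pseudogene symbol ending in -ps left out, and 17 listed genes that make, load or accompany MHC molecules. This gave 42 genes of the 16292 in the deposited tables, 25 of them named H2-, and 30 of the 42 lay on chromosome 17. All were female C57BL/6 mice, 8 weeks old at the start. Lcn2 null mice given CCl4, Lcn2 null mice given mineral oil, wild type mice given CCl4 and wild type mice given mineral oil made up the 4 groups, with 3 libraries each. CCl4 was injected intraperitoneally at 0.8 ml/kg in mineral oil, or the oil alone, 2 times a week for 8 weeks, and livers were taken 48 h after the last injection, so that all 4 groups had received repeated mineral oil and there was no uninjected group. CCl4 is a hepatotoxin that hepatocytes activate, and repeated injection leads to fibrosis. The Lcn2 null mice lack lipocalin 2 in every cell type. Replicates are given as numbers only, so that p-values rest on the differences among these libraries alone, part of which may be technical.

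MHC class I molecules show peptides from inside the cell to CD8 T cells. Proteasome subunits cut the peptides, the TAP transporter carries them into the endoplasmic reticulum, and a loading complex places them on a heavy chain bound to beta-2 microglobulin; nearly every cell, hepatocytes included, carries them. MHC class II molecules show peptides of engulfed protein to CD4 T cells. They are made by B cells, dendritic cells and macrophages, and in the liver also by Kupffer cells, the resident macrophages, and at a lower level by sinusoidal endothelium. The invariant chain Cd74 guards their groove until H2-DM exchanges it for a peptide. Interferon gamma raises both classes, class I through the transactivator Nlrc5 and class II through Ciita.

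The libraries held 7582962 to 14591487 reads in genes, and values are counts scaled to the library total (CPM). Lcn2 stood at 16.7, 14.6 and 4.63 CPM in Lcn2 null livers on CCl4 and 7.74, 3.44 and 4.21 CPM in Lcn2 null livers on oil. It stood at 557, 424 and 405 CPM in wild type livers on CCl4 and 345, 739 and 1045 CPM in wild type livers on oil, so that the libraries fitted their labels, although reads at the 3′ end may lie outside the deleted part. The liver markers were in place, with the 6 hepatocyte genes summing to between 59355 and 101280 CPM. A gene passed the test where limma on log2(CPM + 1) gave a p of 0.05 or less after Benjamini-Hochberg adjustment over the whole comparison, together with a log2 change above 0.56 in size. Fold changes on this scale understate the change of genes near 1 CPM.

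One property of the CPM scale touches every comparison of CCl4 with oil. The median log2 change of all genes was 0.35 in Lcn2 null livers and 0.27 in wild type livers, and it became 0.029 in Lcn2 null livers and 0.021 in wild type livers once the libraries were rescaled by TMM, a factor that centres most genes on no change. In Lcn2 null livers 4631 genes were higher and 705 lower with CCl4 on CPM, against 1962 higher and 1672 lower after rescaling. In wild type livers 2931 genes were higher and 504 lower on CPM, against 1199 higher and 1080 lower after rescaling. A rescaled log2 change is therefore given beside the CPM value for most of the changes with CCl4 that are described here.

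Lcn2 null and wild type livers on oil were compared first, over 40 of the 42 genes. Most lay a little lower in Lcn2 null livers: 34 had a negative log2 change, and the median of the 40 was -0.27, where that of all genes was -0.033. A single gene, H2-M2, passed the test as lower, where 4.91% of all genes were called, 3.8% as lower. In 13 genes the 3 Lcn2 null libraries all lay below the 3 wild type libraries and in 2 they all lay above, where 14.3% and 9.84% of all genes did so. At an unadjusted p under 0.05 there were 16 of the 40, and 19.3% of all genes. In the same comparison 9 of 11 Kupffer cell markers, 10 of 11 monocyte and macrophage markers and 6 of 6 mesothelial markers passed as lower in Lcn2 null livers, and their part in the values of the 40 genes was not tested.

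On CCl4, none of the 40 measured genes passed the test between Lcn2 null and wild type livers with limma, edgeR or DESeq2, and 6 had an unadjusted p under 0.05, as did 8.67% of all genes. Of all genes 0.298% were called, so that few calls of any kind were made in this comparison. In 1 gene (Calr) the 3 Lcn2 null libraries all lay above the 3 wild type libraries, and in 4 (H2-Aa, H2-Ab1, Cd74 and Erap1) they all lay below, where 8.66% and 5.56% of all genes did so. The median log2 change of the 40 was -0.048, where that of all genes was 0.039. Of the role groups, the class II chains with Cd74 had the lowest median, with log2 changes of -0.92 to -0.67 and 0 passing.

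With CCl4 in Lcn2 null livers, 7 of 41 genes passed the test, 5 as higher and 2 as lower, where 34.1% of all genes were called, 29.6% as higher and 4.51% as lower. The 5 were class I-b heavy chains and a transporter subunit (H2-Q5, H2-Q6, H2-Q7, H2-M3 and Tap2), and the 2 were Cd1d1 and H2-Ke6. On rescaled values 1 gene was higher (H2-Q5) and 5 were lower (H2-K1, B2m, Nlrc5, Cd1d1 and H2-Ke6), where 23.2% of all genes were called, 12.5% as higher and 10.7% as lower. Of the 7 genes, 3 passed on both scales. On CPM, 13 of the 41 genes had all CCl4 libraries above all oil libraries and 4 had them below, against 45.3% and 8.53% of all genes, and 15 had an unadjusted p under 0.05, against 51.5%. Without Lcn2 null CCl4 replicate 3, 11 genes passed, 8 as higher and 3 as lower, where 33.7% of all genes were called.

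With CCl4 in wild type livers, 0 of 42 genes passed the test with limma on CPM, where 21.7% of all genes were called, 18.5% as higher and 3.18% as lower, and 10 had an unadjusted p under 0.05, against 40.8% of all genes. On CPM the CCl4 libraries all lay above the oil libraries in 4 genes and below in 5, against 37.6% and 6.82% of all genes. On rescaled values 8 genes passed, all lower: H2-K1, B2m, Calr, Psmb10, Tapbpl, Nlrc5, Cd1d1 and H2-Ke6. The same 8 were lower by edgeR and by DESeq2, and after rescaling 14.4% of all genes were called, 7.57% as higher and 6.82% as lower. The median log2 change of the 42 was 0.053 on CPM and -0.21 after rescaling.

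The response to CCl4 was then set against genotype, as the Lcn2 null change minus the wild type change. None of 41 genes passed with limma on CPM, where 1.9% of all genes were called, and 9 had an unadjusted p under 0.05, against 14.9% of all genes. Cd1d1 passed on rescaled values, where 2.17% of all genes were called, and by edgeR, and Cd1d1 and H2-M2 passed by DESeq2. The values of each gene follow by role.

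**Figure D1:**
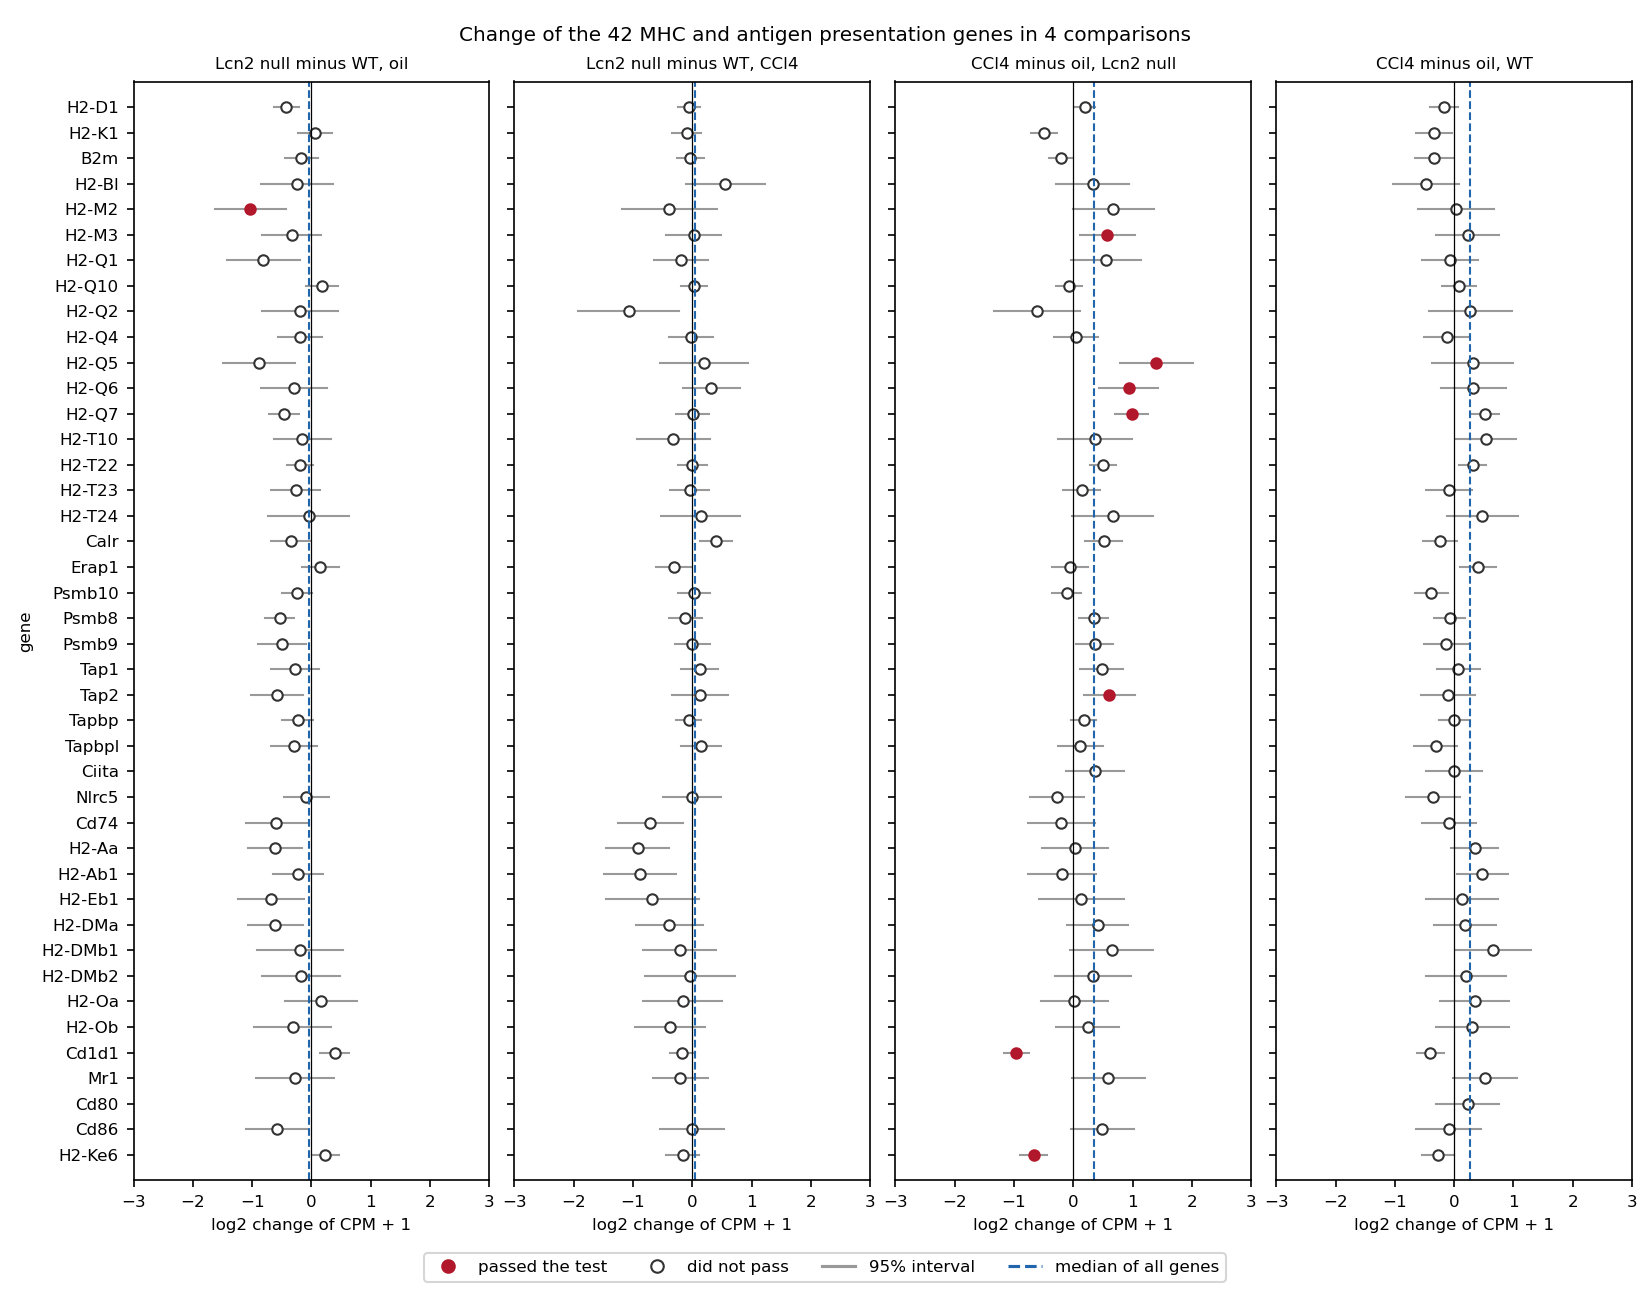
Log2 change (x axis, CPM + 1) of each of the 42 genes (y axis, grouped by role) in the 4 comparisons, with 95% intervals; filled points passed the test and the dashed line is the median of all genes. H2-M2 is the only filled point between genotypes, 7 points are filled for CCl4 in Lcn2 null livers and 0 for CCl4 in wild type livers.

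The classical class I heavy chains H2-K1 (chr17:33996017-34000347, GRCm38, minus strand) and H2-D1 (chr17:35262730-35267499, plus strand) present peptides to CD8 T cells. H2-K1 stood at 1045, 1252 and 1274 CPM in Lcn2 null livers on CCl4 and 1592, 1761 and 1646 CPM in Lcn2 null livers on oil. It stood at 1174, 1246 and 1392 CPM in wild type livers on CCl4 and 1636, 1368 and 1829 CPM in wild type livers on oil. The 3 Lcn2 null livers on CCl4 thus lay below the 3 on oil, while 1 wild type library on CCl4 reached past the lowest on oil. The log2 change with CCl4 was -0.49 ± 0.10 (SE, n = 3 each, adjusted p = 0.0021) in Lcn2 null livers and -0.34 ± 0.14 (adjusted p = 0.0886) in wild type livers, both under the size that counts as a change. On rescaled values it was -0.92 in Lcn2 null livers and -0.66 in wild type livers, and both passed. H2-K1 did not differ detectably between genotypes, with 95% intervals of -0.23 to 0.34 on oil and -0.33 to 0.14 on CCl4.

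H2-D1 did not follow H2-K1. It stood at 462, 508 and 508 CPM in Lcn2 null livers on CCl4 and 423, 433 and 432 CPM in Lcn2 null livers on oil, and at 492, 522 and 518 CPM in wild type livers on CCl4 and 594, 611 and 524 CPM in wild type livers on oil. On oil the Lcn2 null livers lay below all wild type livers, with a log2 change of -0.42 ± 0.10 and an adjusted p of 0.027, which is under the fold that counts as a change. With CCl4 it lay higher in 3 of 3 Lcn2 null livers (log2 change 0.20, adjusted p = 0.0688) and lower in 3 of 3 wild type livers (-0.17, adjusted p = 0.253) on CPM, and lower in both genotypes on rescaled values (-0.23 in Lcn2 null livers and -0.50 in wild type livers). The difference between these responses was 0.37 (adjusted p = 0.152) and did not pass. B2m (chr2:122147686-122153083, plus strand), the light chain shared by all class I molecules, stood at 2336, 2469 and 2268 CPM in Lcn2 null livers on CCl4, against 2726, 2750.5 and 2688 CPM on oil. It stood at 2202, 2447 and 2618 CPM in wild type livers on CCl4, against 3319.8, 2946 and 2927 CPM in wild type livers on oil. CCl4 libraries lay below oil libraries in both genotypes, with log2 changes of -0.21 in Lcn2 null livers and -0.34 in wild type livers on CPM, which did not pass. On rescaled values they were -0.64 in Lcn2 null livers and -0.67 in wild type livers, and both passed.

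The heavy chain promoters are shown because these related genes ran in different directions with CCl4 in Lcn2 null livers on CPM and their upstream sequences read much alike. They are stretches of RefSeq promoter windows of GRCm38.p6, placed by the RefSeq start. As GENCODE draws the genes, the stretch of H2-K1 reaches into its gene and that of H2-D1 lies wholly inside. Capitals mark a kappa B-like core, spelled GGATTCC, and an inverted Y box core, which on the other strand is TGATTGG, both motifs known from class I promoters.
H2-K1 (chr17:34000328-34000469, minus strand): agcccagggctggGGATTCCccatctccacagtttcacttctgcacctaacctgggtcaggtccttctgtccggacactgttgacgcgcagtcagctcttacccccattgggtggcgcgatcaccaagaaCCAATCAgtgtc
H2-D1 (chr17:35262912-35263053, plus strand): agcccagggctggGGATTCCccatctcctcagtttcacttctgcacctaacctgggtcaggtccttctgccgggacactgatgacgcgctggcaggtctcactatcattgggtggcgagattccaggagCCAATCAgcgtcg
H2-Q7 (chr17:35439010-35439151, plus strand): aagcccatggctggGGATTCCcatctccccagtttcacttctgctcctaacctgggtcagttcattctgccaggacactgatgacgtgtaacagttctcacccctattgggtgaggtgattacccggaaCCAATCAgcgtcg
H2-Q10 (chr17:35469902-35470043, plus strand): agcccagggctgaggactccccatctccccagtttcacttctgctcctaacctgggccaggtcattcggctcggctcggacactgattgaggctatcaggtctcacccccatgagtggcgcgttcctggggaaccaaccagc
H2-K1, H2-Q7 and H2-D1 carried both cores in the same order. With CCl4 in Lcn2 null livers on CPM, H2-Q7 passed as higher (log2 change 0.98) and H2-K1 did not pass (-0.49). On rescaled values H2-K1 passed as lower and H2-Q7 did not pass with limma. H2-Q10 had neither in the stretch shown. On both strands, GGATTCC was in 3.79% and TGATTGG in 7.82% of 32851 promoter windows of 300 bases in the table. Of the 42 genes, 29 had a window, of which 4 held GGATTCC (H2-D1, H2-K1, H2-Q6 and H2-Q7) and 15 held TGATTGG. A match of letters says nothing of binding in these livers.

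**Figure D2:**
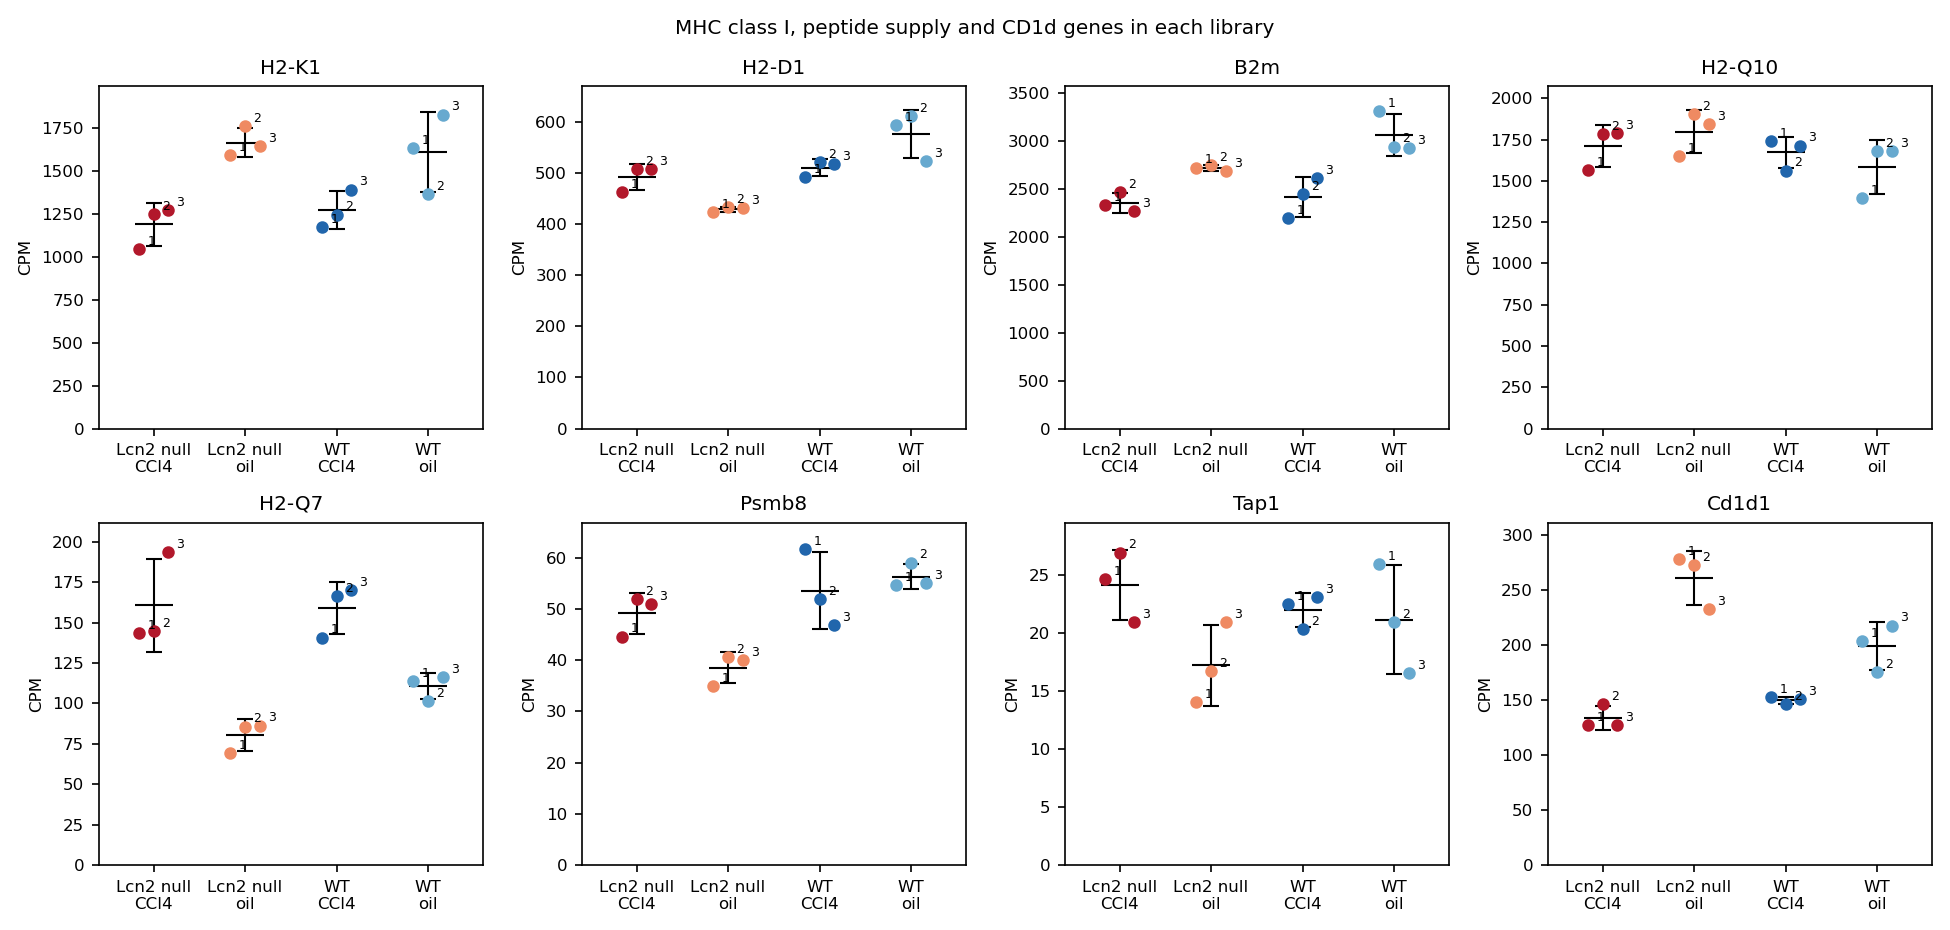
CPM (y axis, from 0) of 8 class I, peptide supply and CD1d genes in the 12 libraries by group (x axis); points are libraries with their replicate number, and bars are the mean ± SD (n = 3). H2-K1 and Cd1d1 were lower in Lcn2 null livers on CCl4 than on oil in 3 of 3 libraries, H2-Q7 was higher, and H2-Q10 overlapped in all groups.

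The 14 class I-b heavy chains are less variable between strains than H2-K1 and H2-D1, and some bind non-classical ligands. H2-Q7 (chr17:35439155-35443773), a Qa-2 chain, ranged over 143 to 194 CPM in Lcn2 null livers on CCl4, against 69.1 to 86.3 CPM on oil, and rose with a log2 change of 0.98 ± 0.13 (adjusted p = 8.49e-05). In wild type livers it ranged over 141 to 170.0 CPM on CCl4, against 101 to 116 CPM on oil, with a log2 change of 0.52 (adjusted p = 0.00329) that missed the fold, and that passed without CCl4 replicate 1 (0.60). Its rescaled log2 changes were 0.56 in Lcn2 null livers and 0.19 in wild type livers and did not pass with limma, while edgeR (0.57) and DESeq2 (0.57) still called it in Lcn2 null livers. On oil H2-Q7 was -0.46 in Lcn2 null against wild type livers (adjusted p = 0.0341), again under the fold, and on CCl4 the genotypes overlapped.

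H2-Q6 (chr17:35424850-35430055), the neighbour of H2-Q7 and also a Qa-2 chain, rose with CCl4 in Lcn2 null livers by a log2 change of 0.94 (adjusted p = 0.00548), at 9.63 to 17.1 CPM on CCl4, against 5.08 to 7.19 CPM on oil. Its rescaled change of 0.56 did not pass. H2-Q5 (chr17:35394126-35397800), annotated as a polymorphic pseudogene, had the largest rise, at 2.9, 2.82 and 1.25 CPM on CCl4 against 0, 0.215 and 0.496 CPM on oil in Lcn2 null livers, a log2 change of 1.40 ± 0.28 (adjusted p = 0.0017) that was 1.22 on rescaled values and passed there too. It stood at 0.773, 2.81 and 2.27 CPM on CCl4 and 2.0, 1.08 and 0.841 CPM on oil in wild type livers, where the groups overlapped (log2 change 0.31 on CPM, 0.13 rescaled). The Lcn2 null livers on oil were thus the lowest group in H2-Q5, at 0, 3 and 4 reads per library. H2-Q5, H2-Q6 and H2-Q7 are near-identical copies, so that reads may have been shared between them and each single value is uncertain, and the same holds to a lesser degree for H2-T10 with H2-T22 and H2-K1 with H2-D1.

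H2-M3 (chr17:37270220-37274484), which presents formylated bacterial and mitochondrial peptides, rose in Lcn2 null livers with CCl4, with a log2 change of 0.58 (adjusted p = 0.0461), at 5.13 to 5.8 CPM on CCl4, against 3.23 to 3.6 CPM on oil. The call stood at the edge of the test: it was lost without any 1 of the 6 libraries (adjusted p between 0.0563 and 0.117), and its rescaled change was 0.23. H2-M2 (chr17:37480851-37483552) was the 1 call between genotypes. It had 0, 0 and 0 CPM in Lcn2 null livers on oil, against 0.455, 1.8 and 1.08 CPM in wild type livers on oil. That is 0 reads against 29, at least 10.9-fold lower when 3 reads over the group are taken as the floor. The fitted log2 change was -1.03 (adjusted p = 0.0498), and the call was lost without Lcn2 null replicate 1, 2 or 3 (adjusted p = 0.125, 0.154 and 0.11) or wild type replicate 2 or 3 (0.187 and 0.0901). On CCl4 it had 1.71, 0.503 and 0 CPM in Lcn2 null livers and 1.77, 1.1 and 0.568 CPM in wild type livers, which overlapped.

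The other 9 class I-b chains passed in no comparison with all libraries. Without Lcn2 null CCl4 replicate 3, H2-T10 passed as higher with CCl4 in Lcn2 null livers (0.69, against 0.37 with it) and H2-Q2 as lower (-0.94, against -0.61 with it), on CPM. The rescaled changes with all libraries were 0.025 for H2-T10 and -0.76 for H2-Q2. H2-Q1 had a log2 change of -0.81 in Lcn2 null against wild type livers on oil (adjusted p = 0.128) without overlap, and passed with a replicate block (adjusted p = 0.0422). H2-Q10 (chr17:35470089-35474563), a class I molecule that hepatocytes secrete, ranged over 1565 to 1791 CPM in Lcn2 null livers on CCl4 and 1649 to 1903 CPM in Lcn2 null livers on oil. In wild type livers it ranged over 1562 to 1740.0 CPM on CCl4 and 1396 to 1680.1 CPM on oil, so that the groups overlapped, although its rescaled change in Lcn2 null livers was -0.50 (adjusted p = 0.00323), under the fold. H2-T22, a ligand of some gamma delta T cells, had log2 changes of 0.50 in Lcn2 null livers (adjusted p = 0.00205) and 0.31 in wild type livers (adjusted p = 0.0459) with CCl4 on CPM, and of 0.076 in Lcn2 null livers and -0.015 in wild type livers on rescaled values, so that the wild type sign turned. H2-T23, the Qa-1 chain seen by NK cell receptors, overlapped between groups in every comparison. H2-Q2, at no more than 3.86 CPM in any library, had the lowest log2 change of the set between genotypes on CCl4, -1.08 (adjusted p = 0.423), with overlapping groups. On oil 13 of the 14 chains had a negative log2 change in Lcn2 null against wild type livers. In 6 of them all Lcn2 null libraries lay below all wild type libraries, as they did in 14.3% of all genes.

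The 9 genes of peptide supply and loading lay lower in Lcn2 null livers on oil in 8 cases, with a median log2 change of -0.30 and 0 passing the test. Psmb8 (chr17:34197721-34201454), a catalytic subunit of the immunoproteasome, had the lowest adjusted p. It stood at 35, 40.5 and 39.9 CPM in Lcn2 null livers on oil, against 54.7, 59 and 54.9 CPM in wild type livers on oil, and the groups did not overlap. The log2 change was -0.54 ± 0.11 (adjusted p = 0.0139), just under the fold; without Lcn2 null replicate 2 or 3 it passed (log2 change -0.58 and -0.56). On CCl4 Psmb8 stood at 44.6, 51.9 and 50.9 CPM in Lcn2 null livers, against 61.7, 51.9 and 46.9 CPM in wild type livers, which overlapped. Its change with CCl4 was 0.34 in Lcn2 null livers (adjusted p = 0.0275) and -0.078 in wild type livers (adjusted p = 0.674) on CPM, and -0.074 in Lcn2 null livers and -0.40 in wild type livers on rescaled values, where the Lcn2 null sign turned.

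Psmb9 (chr17:34181987-34187764, minus strand) and Tap1 (chr17:34187553-34197225, plus strand), a second immunoproteasome subunit and a subunit of the peptide transporter, start from a shared divergent promoter, and their annotated starts overlap by 212 bases. Psmb9 stood at 37.7, 40.4 and 30.1 CPM in Lcn2 null livers on CCl4, 25.8, 31.9 and 25.7 CPM in Lcn2 null livers on oil, 32.9, 38 and 36.7 CPM in wild type livers on CCl4 and 53, 39.6 and 29.2 CPM in wild type livers on oil. Its wild type libraries on oil spread widely and overlapped those of the null (log2 change -0.50, adjusted p = 0.152), and without wild type replicate 3 it passed as lower (-0.71). Tap1 stood at 24.7, 27 and 21 CPM in Lcn2 null livers on CCl4, 14.1, 16.7 and 21 CPM in Lcn2 null livers on oil, 22.5, 20.4 and 23.2 CPM in wild type livers on CCl4 and 26, 21 and 16.6 CPM in wild type livers on oil. With CCl4 it lay higher in 3 of 3 Lcn2 null libraries, the lowest on CCl4 just above the highest on oil (log2 change 0.48, adjusted p = 0.034) without reaching the fold, and its rescaled change was 0.069. It passed on CPM without Lcn2 null CCl4 replicate 3 (0.57) or Lcn2 null oil replicate 3 (0.62). Tap2 (chr17:34203527-34216321), the partner subunit, rose in Lcn2 null livers, with a log2 change of 0.61 (adjusted p = 0.0245), at 14.2 to 17 CPM on CCl4, against 7.08 to 11.5 CPM on oil. That call was lost without Lcn2 null CCl4 replicate 2 (adjusted p = 0.0892) or Lcn2 null oil replicate 1 (0.0912), and the rescaled change was 0.22.

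Calr (chr8:84841850-84846934), calreticulin, a chaperone that holds new class I chains and has many other clients, ranged over 821 to 1018 CPM in Lcn2 null livers on CCl4, against 607 to 805 CPM in wild type livers on CCl4. It was higher in 3 of 3 null libraries, with a log2 change of 0.40 (adjusted p = 0.293) that did not pass. Its response to CCl4 differed between genotypes by 0.75 (adjusted p = 0.0856), which passed only without Lcn2 null oil replicate 3 (adjusted p = 0.0299) or wild type CCl4 replicate 1 (0.0457). With CCl4 its log2 change was 0.51 in Lcn2 null livers (adjusted p = 0.0123) and -0.24 in wild type livers (adjusted p = 0.199) on CPM, neither of which passed, and 0.085 in Lcn2 null livers and -0.56 in wild type livers on rescaled values, where it passed as lower in the wild type alone. On CPM it passed as higher in Lcn2 null livers without CCl4 replicate 1 (0.58) or oil replicate 3 (0.67). Erap1, the aminopeptidase that trims peptides, ran the other way, at 26.6 to 35.1 CPM in Lcn2 null livers on CCl4 and 35.3 to 38.6 CPM in wild type livers on CCl4 (log2 change -0.32, adjusted p = 0.551). Psmb10 and the chaperone-like Tapbpl passed as lower with CCl4 in wild type livers on rescaled values (-0.70 and -0.62), against -0.38 and -0.31 on CPM, which did not pass. Tapbp, tapasin of the loading complex, ranged from 80.4 to 119.6 CPM over all 12 libraries.

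The transactivators were at low levels. Nlrc5 (chr8:94434356-94527272), which drives class I genes, stood at 5.8, 8.66 and 5.75 CPM in Lcn2 null livers on CCl4, 7.96, 7.75 and 9.05 CPM in Lcn2 null livers on oil, 6.07, 6.17 and 7.83 CPM in wild type livers on CCl4 and 8.64, 8.4 and 9.38 CPM in wild type livers on oil. In wild type livers the 3 CCl4 libraries lay below the 3 oil libraries. The log2 change with CCl4 was -0.28 in Lcn2 null livers (adjusted p = 0.314) and -0.36 in wild type livers (adjusted p = 0.217) on CPM. On rescaled values it was -0.65 in Lcn2 null livers and -0.65 in wild type livers, and only these passed. Ciita (chr16:10480059-10528418), which drives class II genes, was measured in the comparisons of CCl4 with oil alone. It stood at 0.659, 0.302 and 0.125 CPM in Lcn2 null livers on CCl4, 0, 0 and 0.124 CPM in Lcn2 null livers on oil, 0, 0.411 and 0.114 CPM in wild type livers on CCl4 and 0.273, 0.12 and 0.12 CPM in wild type livers on oil. These are 0 to 6 reads per library, and a difference was not detectable at this depth.

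The class II chains H2-Aa (chr17:34282744-34287823), H2-Ab1 (chr17:34257689-34269419) and H2-Eb1 (chr17:34305867-34316674) and the invariant chain Cd74 passed in no comparison, and their widest differences lay between genotypes. C57BL/6 mice make the A molecule from H2-Aa and H2-Ab1 but lack a working alpha chain for H2-Eb1. Summed over the 4 genes, Lcn2 null livers held 159, 153 and 73.3 CPM on CCl4, against 170.3, 198 and 307 CPM in wild type livers on CCl4. On oil the sums were 106, 113 and 178 CPM in Lcn2 null livers and 195, 234 and 137 CPM in wild type livers. On CCl4 the null sums thus all lay below the wild type sums, while on oil they overlapped. Fewer antigen presenting cells and less class II RNA per cell cannot be told apart in whole liver.

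The promoter sequences of 4 class II genes, upstream of the RefSeq start, are shown because these genes belong to 1 module with a known common promoter layout. The stretch of H2-DMb1 lies wholly inside its gene as GENCODE draws it. Capitals mark the Y box core (TGATTGG) and an X box-like run (TAGNAAC). The letters of all motifs searched here were chosen after the windows had been seen.
H2-Aa (chr17:34287857-34287918, minus strand): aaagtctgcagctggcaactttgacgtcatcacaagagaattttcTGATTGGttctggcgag
H2-Eb1 (chr17:34305761-34305822, plus strand): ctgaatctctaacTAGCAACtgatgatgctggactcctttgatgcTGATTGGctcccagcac
H2-Ob (chr17:34238801-34238862, plus strand): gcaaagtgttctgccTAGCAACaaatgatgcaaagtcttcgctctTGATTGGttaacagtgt
H2-DMb1 (chr17:34153083-34153144, plus strand): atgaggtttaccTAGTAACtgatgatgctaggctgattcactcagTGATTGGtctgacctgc
All 4 held the Y box core, and H2-Eb1, H2-Ob and H2-DMb1 also held the X box-like run a short way upstream of it. On both strands TAGNAAC was in 11.4% of all promoter windows and in 7 of the 29 genes with a window, among them H2-M2, Psmb8 and H2-Ke6, so that a match is common. The Y box core is the one that the promoters of H2-K1, H2-D1 and H2-Q7 carry on the other strand.

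H2-Aa stood at 46.8, 43.1 and 23.4 CPM in Lcn2 null livers on CCl4, against 56, 62.9 and 95.2 CPM in wild type livers on CCl4. On oil it stood at 28.6, 30.1 and 51.6 CPM in Lcn2 null livers, against 62, 61.3 and 42.7 CPM in wild type livers. The genotypes did not overlap on CCl4 (log2 change -0.92 ± 0.24, unadjusted p = 0.00246, adjusted p = 0.198 by limma) and overlapped on oil (-0.61, adjusted p = 0.118). Lcn2 null CCl4 replicate 3 was the lowest library of all 12 in H2-Aa, H2-Ab1, H2-Eb1 and Cd74, and without it the H2-Aa log2 change on CCl4 was -0.62 (adjusted p = 0.271). Wild type CCl4 replicate 3 was the highest of all 12 in H2-Aa, H2-Ab1 and H2-Eb1, and without it the value was -0.70 (adjusted p = 0.561).

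H2-Ab1 stood at 44.4, 49.4 and 21.5 CPM in Lcn2 null livers on CCl4, against 54.8, 58 and 97.2 CPM in wild type livers on CCl4. On oil it stood at 38.8, 33.2 and 54.9 CPM in Lcn2 null livers, against 47.8, 62.1 and 38.2 CPM in wild type livers. As in H2-Aa, the genotypes were apart on CCl4 (log2 change -0.88 ± 0.28, adjusted p = 0.317) and overlapped on oil (-0.22, adjusted p = 0.59). H2-Eb1 stood at 28, 24.1 and 9.63 CPM in Lcn2 null livers on CCl4, against 18.2, 32.6 and 47.3 CPM in wild type livers on CCl4, which overlapped (log2 change -0.67, adjusted p = 0.653). On oil it stood at 13.7, 14 and 25.3 CPM in Lcn2 null livers, against 28.1, 39.2 and 19.2 CPM in wild type livers, which also overlapped (-0.68, adjusted p = 0.164).

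Cd74 stood at 39.4, 36.8 and 18.8 CPM in Lcn2 null livers on CCl4, against 41.3, 44.4 and 67.8 CPM in wild type livers on CCl4, without overlap (log2 change -0.71 ± 0.25, adjusted p = 0.414). On oil it stood at 25, 36 and 46.6 CPM in Lcn2 null livers, against 57, 71.3 and 36.4 CPM in wild type livers, with overlap (-0.59, adjusted p = 0.188); without wild type replicate 3 it passed as lower on oil (-0.86), and H2-Aa passed as lower without Lcn2 null oil replicate 3 (-0.87). With CCl4 the log2 changes of the 4 genes ranged over -0.20 to 0.14 in Lcn2 null livers and -0.083 to 0.47 in wild type livers on CPM, and over -0.61 to -0.27 in Lcn2 null livers and -0.40 to 0.15 in wild type livers on rescaled values, with 0 passing. The response of H2-Ab1, the widest of the 4, differed between genotypes by -0.66 (95% interval -1.48 to 0.16, adjusted p = 0.46).

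**Figure D3:**
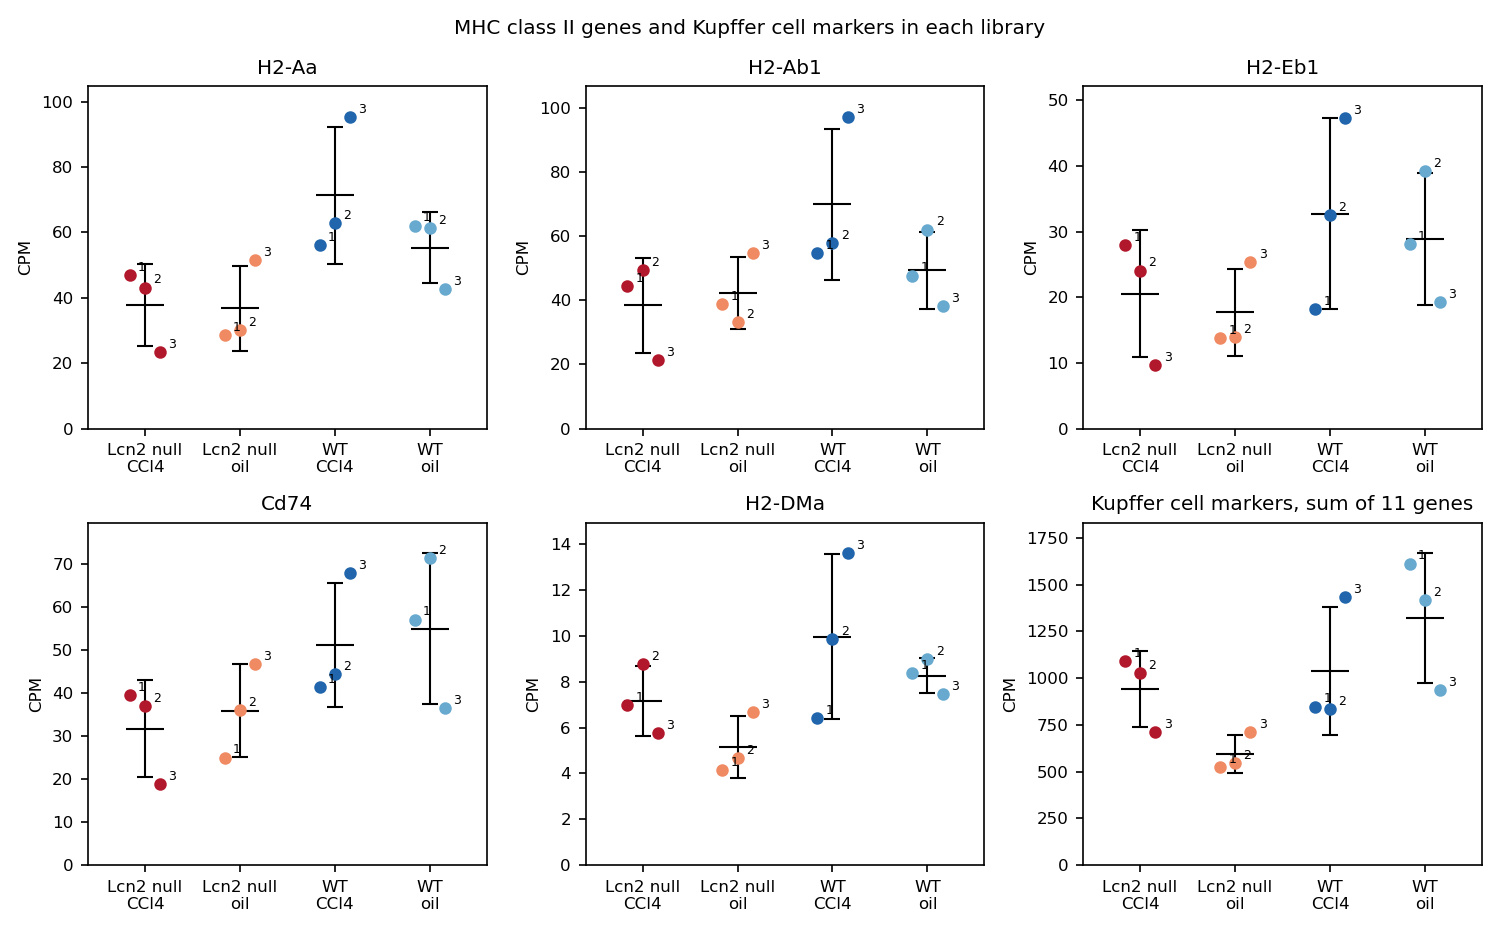
CPM (y axis, from 0) of 5 class II genes and the summed CPM of 11 Kupffer cell markers in the 12 libraries by group (x axis); points are libraries with their replicate number, and bars are the mean ± SD (n = 3). H2-Aa, H2-Ab1 and Cd74 did not overlap between Lcn2 null and wild type livers on CCl4, and replicate 3 of Lcn2 null CCl4 was the lowest library in H2-Aa, H2-Ab1, H2-Eb1 and Cd74.

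The peptide exchange genes passed in no comparison. H2-DMa (chr17:34119541-34139101), a chain of the molecule that takes the invariant chain peptide out of the groove, stood at 6.99, 8.76 and 5.75 CPM in Lcn2 null livers on CCl4, against 6.4, 9.87 and 13.6 CPM in wild type livers on CCl4. On oil it stood at 4.14, 4.66 and 6.69 CPM in Lcn2 null livers, against 8.37, 9.0 and 7.45 CPM in wild type livers. On oil the groups did not overlap (log2 change -0.61 ± 0.22, adjusted p = 0.132) and on CCl4 they did (-0.39, adjusted p = 0.74). H2-DMa overlaps Brd2 on the other strand. H2-DMb1, the partner chain, had the highest log2 change of the class II genes with CCl4 on CPM, 0.65 in Lcn2 null livers (adjusted p = 0.122) and 0.66 in wild type livers (adjusted p = 0.103), and passed only without wild type oil replicate 2 (0.98) or without Lcn2 null CCl4 replicate 3 (1.0). On rescaled values it was 0.28 in Lcn2 null livers and 0.38 in wild type livers. H2-Oa, H2-Ob and H2-DMb2 were under 2.5 CPM in every library.

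Markers of the cells that carry class II were read beside these genes. On oil, 9 of 11 Kupffer cell markers and 10 of 11 markers of monocytes and inflammatory macrophages passed as lower in Lcn2 null livers. Of all genes, 3.8% did so. The Kupffer markers summed to 525 to 709 CPM in Lcn2 null livers, against 935 to 1613 CPM in wild type livers, and the monocyte markers to 184 to 266 CPM in Lcn2 null livers, against 420.3 to 909 CPM in wild type livers. On CCl4, 0 of 11 markers passed between genotypes in either list. There the Kupffer sums were 711 to 1089 CPM in Lcn2 null livers and 835 to 1432 CPM in wild type livers, and the monocyte sums 325 to 648 CPM in Lcn2 null livers and 494 to 686 CPM in wild type livers, both with overlap. Lcn2 null CCl4 replicate 3, the lowest in class II, was also the lowest of its group in both sums. It was the lowest of its group in the B cell, T and NK cell, dendritic and mesothelial sums too. Wild type oil replicate 3 and Lcn2 null oil replicate 1 were each the lowest of their group in class II and in both sums. In wild type livers on CCl4, replicate 1 had the lowest class II sum (170.3 CPM). There replicate 2 had the lowest Kupffer (835 CPM) and monocyte (494 CPM) sums. With CCl4, 10 of 11 monocyte markers were higher in Lcn2 null livers, against 2 higher and 1 lower in wild type livers; on rescaled values 9 were higher in Lcn2 null livers, and 2 were higher and 2 lower in wild type livers. Of the Kupffer markers, 6 were higher and 3 lower with CCl4 in Lcn2 null livers and 6 lower in wild type livers, and on rescaled values 1 was higher and 4 lower in Lcn2 null livers and 6 were lower in wild type livers. Of all genes, 29.6% were higher and 4.51% lower in Lcn2 null livers and 18.5% were higher and 3.18% lower in wild type livers on CPM. On rescaled values 12.5% were higher and 10.7% lower in Lcn2 null livers, and 7.57% were higher and 6.82% lower in wild type livers. No class II gene passed beside these markers. The part of these cells in the class II values was not tested.

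The lymphoid and dendritic markers were low. B cell markers (8 genes) summed to 7.0 to 15.8 CPM in Lcn2 null livers on CCl4, 2.44 to 3.27 CPM in Lcn2 null livers on oil, 8.77 to 11.1 CPM in wild type livers on CCl4 and 2.16 to 7.19 CPM in wild type livers on oil. Markers of type 2 conventional dendritic cells (4 genes) summed to 4.75 to 13 CPM in Lcn2 null livers on CCl4, 1.31 to 1.61 CPM in Lcn2 null livers on oil, 9.65 to 12.5 CPM in wild type livers on CCl4 and 1.32 to 3.36 CPM in wild type livers on oil, with 2 of 4 passing as higher with CCl4 in each genotype on CPM, and 1 in Lcn2 null livers and 2 in wild type livers on rescaled values. Of the B cell markers 3 passed as higher in Lcn2 null livers and 2 in wild type livers on CPM. On rescaled values 3 passed in Lcn2 null livers and 0 in wild type livers. Of all genes, 29.6% were higher with CCl4 in Lcn2 null livers and 18.5% in wild type livers on CPM. On rescaled values 12.5% were higher in Lcn2 null livers and 7.57% in wild type livers. Cd209a was at 0 in wild type livers on oil and Ccr7, a marker of mature dendritic cells, at 0 in Lcn2 null livers on oil. The CCl4 sums of the B cell and type 2 dendritic sets lay above the oil sums in both genotypes on CPM, where no class II chain passed. On rescaled values the B cell sums of wild type livers overlapped. Sums of type 1 conventional dendritic markers (6 genes) overlapped between CCl4 and oil in both genotypes on both scales. In wild type livers they were 15.6 to 23.6 CPM on CCl4, against 15.99 to 19.8 CPM on oil. In Lcn2 null livers they were 12.5 to 20.7 CPM on CCl4, against 9.4 to 13.1 CPM on oil. Sums of mature and plasmacytoid dendritic markers lay above the oil sums in both genotypes on CPM. On rescaled values these overlapped in Lcn2 null livers. Of all genes, 45.3% in Lcn2 null livers and 37.6% in wild type livers had all CCl4 libraries above all oil libraries on CPM. T and NK cell markers (9 genes) passed in no comparison, and the 5 markers of sinusoidal endothelium and 6 of hepatocytes in neither comparison of genotypes.

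Of the 7 genes that passed with CCl4 in Lcn2 null livers, the MHC-like molecule Cd1d1 had the lowest adjusted p. Cd1d1 (chr3:86995834-86999441, minus strand), which presents lipids to NKT cells and is made by hepatocytes and antigen presenting cells alike, stood at 127, 146 and 127 CPM in Lcn2 null livers on CCl4, against 278, 272 and 233 CPM in Lcn2 null livers on oil. It stood at 153, 146 and 151 CPM in wild type livers on CCl4, against 204, 175 and 218 CPM in wild type livers on oil. CCl4 libraries lay below oil libraries in both genotypes. It fell in Lcn2 null livers, with a log2 change of -0.96 ± 0.10 (SE, adjusted p = 1.2e-05), the lowest of the set in this comparison. Cd1d1 kept its call in all 16 alternatives that left the fold threshold unchanged, and without that threshold. With a log2 threshold of 1 it did not pass. The wild type change of -0.40 (adjusted p = 0.0121) was under the fold, and on rescaled values the changes were -1.39 in Lcn2 null livers and -0.73 in wild type livers and both passed.

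On oil Cd1d1 lay higher in 3 of 3 Lcn2 null livers than in wild type livers (log2 change 0.39, adjusted p = 0.062), short of the test, and on CCl4 the genotypes overlapped (-0.17). The response to CCl4 differed by -0.56 ± 0.14 (95% interval -0.86 to -0.25, adjusted p = 0.0569), which did not pass. It passed on rescaled values (-0.65, adjusted p = 0.026), without Lcn2 null oil replicate 3 (adjusted p = 0.035) and without wild type oil replicate 3 (0.0368). Mr1, which presents vitamin metabolites to MAIT cells, was at 2.51 to 8.36 CPM and passed only with CCl4 in Lcn2 null livers without oil replicate 3 (0.91). With all libraries that change was 0.59 on CPM and 0.24 on rescaled values.

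The costimulatory ligands Cd80 and Cd86, which bind CD28 and CTLA-4 on T cells, did not change detectably. Cd86 (chr16:36603869-36666081) stood at 6.73, 4.83 and 5.0 CPM in Lcn2 null livers on CCl4 and 4.69, 2.94 and 3.35 CPM in Lcn2 null livers on oil. It stood at 4.86, 4.39 and 7.6 CPM in wild type livers on CCl4 and 6.73, 6.48 and 4.69 CPM in wild type livers on oil. The Lcn2 null livers on oil lay below all wild type livers on oil (log2 change -0.59, adjusted p = 0.191) and below all Lcn2 null livers on CCl4 (0.49 on CPM, 0.14 rescaled, adjusted p = 0.12 and 0.708). Cd80 (chr16:38455561-38496335) was in the wild type comparison alone, at 0, 0.206 and 0.795 CPM on CCl4, against 0.091, 0.24 and 0 CPM on oil, which is 0 to 7 reads per library, and its level in Lcn2 null livers was not analysed here.

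H2-Ke6 (chr17:34026033-34028060) carries an H2 name for its place in the region and is an enzyme of steroid and fatty acid metabolism, with no role in presentation. It fell with CCl4 in Lcn2 null livers, at 40.9 to 46.6 CPM on CCl4 against 66.1 to 76.3 CPM on oil, with a log2 change of -0.67 ± 0.11 (adjusted p = 0.000337) on CPM and -1.09 on rescaled values, where it passed too. In wild type livers it ranged over 42.1 to 55.8 CPM on CCl4, against 55.4 to 62.6 CPM on oil (-0.27 on CPM, -0.59 rescaled, where it passed). It overlaps the transcript Gm20427 on the same strand for nearly its whole length. Of the 42 genes, 10 overlap another gene of the tables, and the strand used in counting is not given in the sources used here. Reads of Psmb9 and Tap1 and of H2-DMa and Brd2, on opposite strands, therefore cannot be told apart where they overlap. Tapbp and Zbtb22 overlap on the same strand, so that their reads cannot be told apart there by strand at all.

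**Figure D4:**
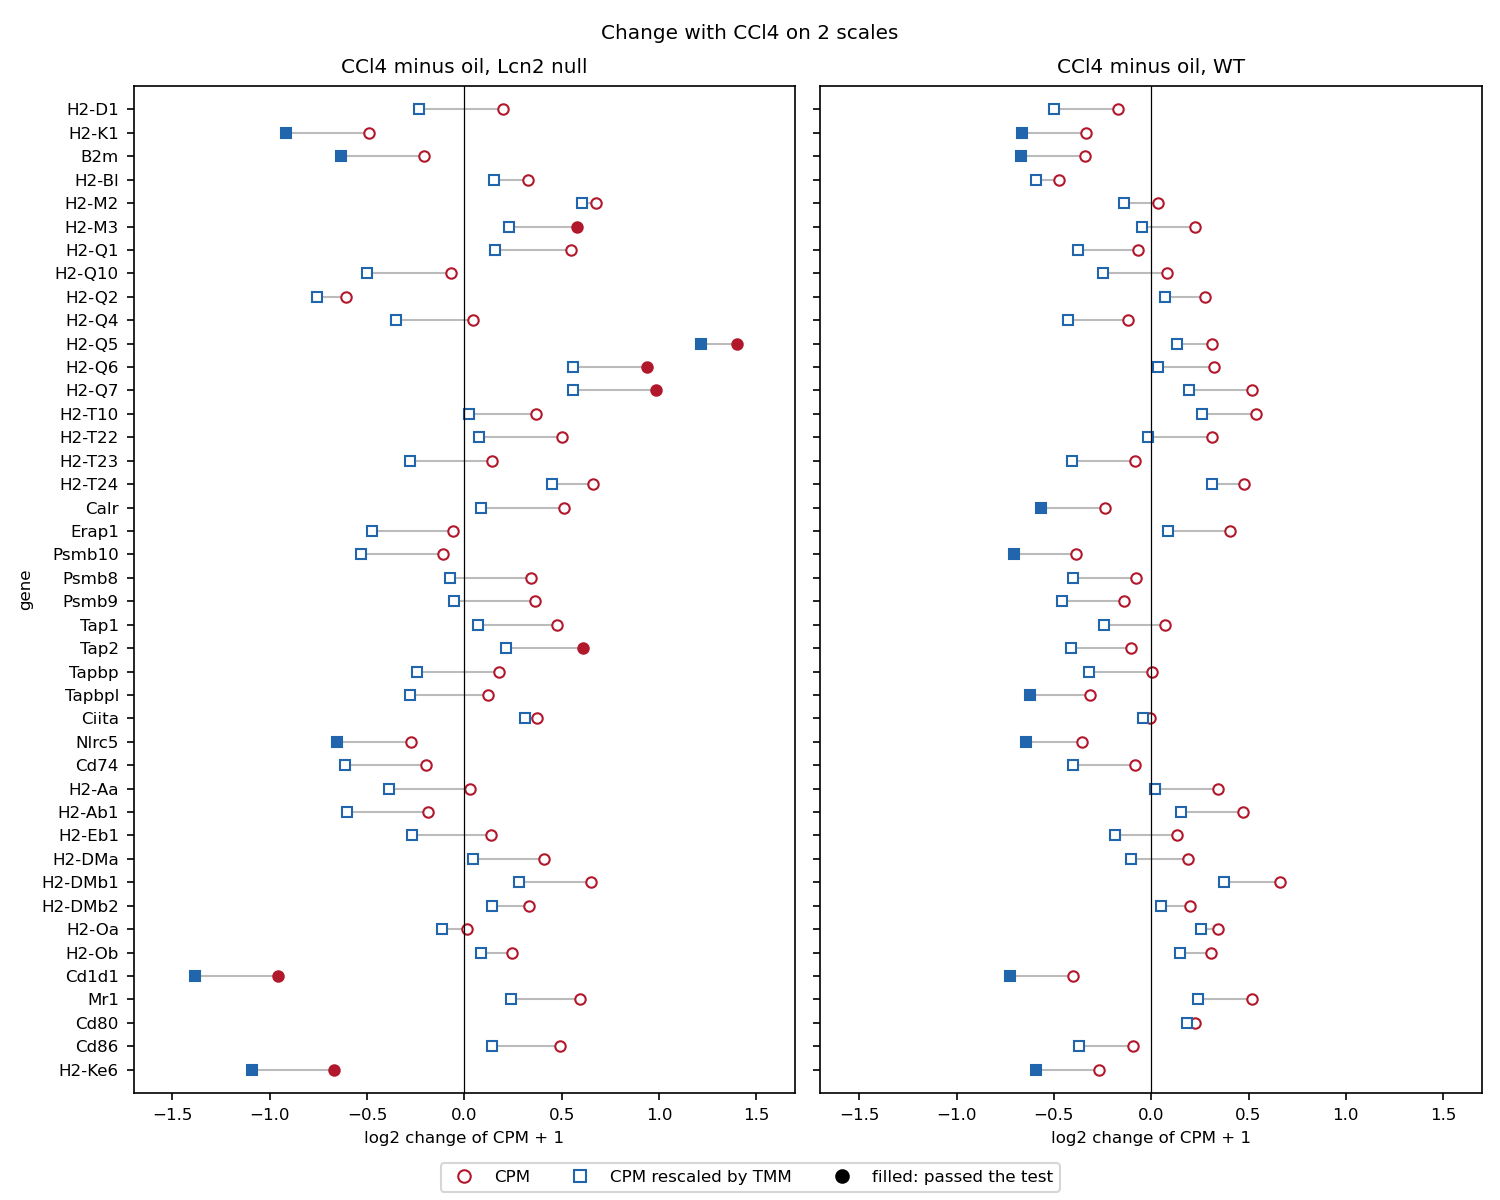
Log2 change with CCl4 (x axis, CPM + 1) of each gene (y axis, grouped by role) in Lcn2 null livers (left) and wild type livers (right), on CPM (circles) and on CPM rescaled by TMM (squares); filled symbols passed the test. Every square lies left of its circle, 5 genes are filled as higher and 2 as lower on CPM in Lcn2 null livers, and 8 are filled in wild type livers on rescaled values alone.

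Other genes of the pathway were read from lists, beside the shares of all genes. With CCl4, 29.6% of all genes were higher in Lcn2 null livers and 18.5% in wild type livers on CPM, and 12.5% in Lcn2 null livers and 7.57% in wild type livers on rescaled values. Of 13 further class I pathway genes (proteasome activators, translocon subunits and chaperones), 6 passed as higher with CCl4 in Lcn2 null livers and 4 in wild type livers on CPM, and 2 in Lcn2 null livers and 0 in wild type livers on rescaled values. Among them was Sec61b, a translocon subunit, with log2 changes of 1.09 in Lcn2 null livers (adjusted p = 3.77e-05) and 0.78 in wild type livers (adjusted p = 0.000752) on CPM. On rescaled values it was 0.66 in Lcn2 null livers, which passed, and 0.45 in wild type livers, which did not. Of 16 further class II pathway genes (lysosomal proteases, processing enzymes and promoter factors), 6 were higher with CCl4 in each genotype on CPM, and 3 higher and 1 lower in Lcn2 null livers and 0 in wild type livers on rescaled values. Lgmn, a lysosomal endopeptidase, had log2 changes of 1.51 in Lcn2 null livers and 0.79 in wild type livers on CPM, both of which passed. On rescaled values it was 1.09 in Lcn2 null livers, which passed, and 0.47 in wild type livers, which did not. On oil 3 of these 16 passed as lower in Lcn2 null livers, as did 3.8% of all genes: Ctss (-1.29), the protease that cleaves the invariant chain, Lgmn (-0.73) and the thiol reductase Ifi30 (-0.97). On oil these enzymes passed where no class II chain did.

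Shares of all genes serve as the measure here. Between genotypes, 3.8% were lower in Lcn2 null livers on oil, and 0.298% were called on CCl4. With CCl4 on CPM, 29.6% were higher and 4.51% lower in Lcn2 null livers, and 18.5% were higher and 3.18% lower in wild type livers. On rescaled values, 12.5% were higher and 10.7% lower in Lcn2 null livers, and 7.57% were higher and 6.82% lower in wild type livers. Of 24 measured genes of the interferon gamma axis, 5 were lower in Lcn2 null livers on oil, among them Gbp2 (-1.38) and Irf8 (-1.05). Between genotypes on CCl4, 0 of the 24 differed. With CCl4, 6 were higher and 1 lower in Lcn2 null livers, and 7 were lower in wild type livers, among them Ifi47 (-1.15 on CPM, -1.46 rescaled) and Tgtp1 (-1.96 on CPM, -2.25 rescaled), where 3.18% of all genes were lower. On rescaled values 1 was higher and 4 lower in Lcn2 null livers, and 8 were lower in wild type livers. Interferon gamma itself (Ifng) was not analysed here. Of 18 type I interferon targets, 11 were lower in Lcn2 null livers on oil, among them Oas1a (-2.14) and Irf7 (-1.43), and 1 (Rsad2, 1.39) was higher on CCl4. With CCl4, 10 of the 18 were higher in Lcn2 null livers and 4 lower in wild type livers, and on rescaled values 4 were higher in Lcn2 null livers and 8 lower in wild type livers. Their median log2 change on oil was -0.96, where that of the 42 genes was -0.27 over the 40 measured. Of the further costimulatory genes, 1 of 8 was lower on oil (Icam1, -0.81), 0 of 9 differed on CCl4, and 6 of 9 in Lcn2 null and 3 of 10 in wild type livers were higher with CCl4, or 3 in Lcn2 null livers and 2 in wild type livers on rescaled values. The lists were chosen with earlier results of these data known, and their counts describe these libraries.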

How the data were processed

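RNA of whole liver was made into rapid MACE libraries by the authors, although the methods name a kit for stranded total RNA too, and the reads were aligned to mm10 with STAR in an nf-core pipeline. Counts per gene came from Salmon per the methods and from featureCounts per the processing notes. The authors deposited them as CPM, counts scaled to the total of each library, in 4 tables of 6 libraries. The deposited fold changes, p-values and enrichment tables of the authors were not used. In every library 100.0% of values were whole multiples of the CPM of 1 read within 0.001, and 1 read was worth 0.0685 to 0.132 CPM, so that whole reads could be recovered.

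The 42 genes and all lists were chosen with earlier results of these data known. Each comparison was fitted by limma 3.58.1 (R 4.3.3) on log2(CPM + 1) with a variance trend, with p-values adjusted over all 14202 to 15841 genes of its table, and the difference of the CCl4 responses over 15194 genes and 12 libraries. Thresholds were 0.05 for the adjusted p and 0.56 for the log2 change. Genes named with values in each library were a fixed set of 15 and, per comparison, the called gene with the largest and lowest change; other genes are given by range. Alternatives were pseudocounts of 0.5 and 5, a mean of at least 1 CPM, no fold threshold or 1, no variance trend, TMM and DESeq2 size factors, edgeR 4.0.16 and DESeq2 1.42.0 on recovered reads, a fit of all 12 libraries, a replicate block and each library left out. Numbers of reads cover counting error only. Gene positions are from GENCODE M21 (GRCm38), and promoter windows of 250 bases before to 50 after the start are from RefSeq (GRCm38.p6).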

Additional observations from a re-analysis of the deposited data

Results flagged for a closer look

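On CPM, H2-D1 was the 1 gene of the set whose libraries moved in opposite directions with CCl4 in the 2 genotypes. It was higher in 3 of 3 Lcn2 null livers, at 462, 508 and 508 CPM on CCl4 against 423, 433 and 432 CPM on oil. It was lower in 3 of 3 wild type livers, at 492, 522 and 518 CPM on CCl4 against 594, 611 and 524 CPM on oil. Of all genes, 45.3% were higher in this way in Lcn2 null livers and 6.82% lower in wild type livers. The share of all genes that did both was not counted. The difference of the responses was 0.37 on the log2 scale (unadjusted p = 0.00878, adjusted p = 0.152 by limma), which did not pass. On rescaled values both responses were negative (-0.23 in Lcn2 null livers and -0.50 in wild type livers), and the difference was 0.28 (adjusted p = 0.347).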

How the results depend on the processing

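Counts of genes that passed, under each alternative, were as follows. On oil (1 lower as reported) they were 0 with a pseudocount of 5, with a mean of at least 1 CPM, without the variance trend, with TMM, with DESeq2 size factors and in a fit of all 12 libraries, and 4 without the fold threshold. The filter of 1 CPM left 33 of the 40 genes and removed H2-M2, so that its call was not retested there. Of all genes, 2.63% to 5.45% were called under the settings that gave 0, and 5.99% without the fold threshold. On CCl4 between genotypes every alternative gave 0, where 0.0762% to 1.27% of all genes were called. With CCl4 in wild type livers (0 as reported) they were 5 without the fold threshold (3 higher, 2 lower), and 8, all lower, with TMM, DESeq2 size factors, edgeR and DESeq2. Of all genes, 29.2% were called there without the fold threshold. With TMM, DESeq2 size factors, edgeR and DESeq2 the shares were 14.05% to 15.997%. With CCl4 in Lcn2 null livers (7 as reported, 5 higher and 2 lower) the counts were 4 with a pseudocount of 5 (2 higher, 2 lower), 12 without the fold threshold (9 higher, 3 lower) and 1 with a threshold of 1. Of all genes, 21.7%, 44.0% and 14.3% were called under these settings, in that order. In Lcn2 null livers TMM and DESeq2 size factors each gave 1 higher and 5 lower, edgeR 2 higher and 5 lower, and DESeq2 3 higher and 5 lower. Under these settings 23.2% to 24.6% of all genes were called. The difference of responses (0 as reported) gave 1 with TMM, DESeq2 size factors and edgeR, where 2.17% to 2.22% of all genes were called. It gave 2 with DESeq2, where 4.67% of all genes were called. Of all genes, 165 were higher and 124 lower in that difference on CPM, against 137 higher and 193 lower with TMM.

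Leaving out 1 library gave 0 to 2 genes on oil, 0 to 0 on CCl4, 0 to 1 in wild type livers, 5 to 11 in Lcn2 null livers and 0 to 2 for the difference. Of all genes, 2.37% to 4.45% were then called on oil and 0.111% to 0.672% on CCl4. The shares were 15.4% to 20.3% in wild type livers, 29.2% to 33.7% in Lcn2 null livers and 0.895% to 2.94% for the difference. Without Lcn2 null CCl4 replicate 3, 8 genes were higher and 3 lower in Lcn2 null livers, and 6 of the 7 were shared. On oil, 2 genes passed without Lcn2 null replicate 3 (Psmb8 and H2-Aa) and 2 without wild type replicate 3 (Psmb9 and Cd74), none of them H2-M2, and 0 passed without Lcn2 null replicate 1 or wild type replicate 2. Same-numbered libraries did not deviate together (correlations of -0.10 to 0.056), so that the numbers name libraries only. With a replicate block the counts were 1 on oil (H2-Q1 in place of H2-M2), 0 on CCl4 and 0 in wild type livers. They were 6 in Lcn2 null livers and 0 for the difference. Of all genes, 4.56% were then called on oil, 0.526% on CCl4 and 21.1% in wild type livers. In Lcn2 null livers the share was 33.5%, and for the difference it was 1.68%. Of 3442 log2 changes of single genes under alternatives that left the fold threshold unchanged, 3112 kept their sign and side of the threshold. Of the rest, 70 newly passed, 36 no longer passed, 224 that passed under neither setting changed sign, and 0 called values changed sign. The cause of these differences was not tested. Genes with few reads per library, such as Ciita, Cd80, H2-Oa and H2-Ob, are limited by depth.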
